A study of Mus musculus with 12 samples.

Results

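Striatal astrocytes take up the transmitter, potassium and water that neuronal activity releases, and 9 genes of that transport were followed through 12 RNA sequencing libraries. The genes were chosen by name as rows of a gene count table with 57132 features: Slc1a2, Slc1a3, Glul, Kcnj10, Aqp4, Gja1, Gjb6, Atp1b2 and Slc4a4. All 9 of the 9 genes were found, and all 9 were among the 13902 features that reached at least 0.5 CPM (counts scaled to library size) in 3 or more libraries. The study compared mice that lack trace amine-associated receptor 5 (TAAR5-KO), a G protein-coupled receptor for trace amines, with wild-type (WT) littermates on a C57Bl/6 background. Both groups were 10 months old and held mice of both sexes, with 6 libraries labelled TAAR5-KO (NK1 to NK6) and 6 labelled WT (NK7 to NK12). The striatum was taken from a coronal slice after the cortex had been removed, so each library mixes neurons, glia and vessels. The labels tied no library to an animal or a sex, and sex was not assigned from the counts.

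The targeted gene, Taar5, did not reach 0.5 CPM in 3 libraries and was not tested, and its few counts went against the labels. Taar5 had 1 to 6 counts in each library labelled TAAR5-KO and 0 to 2 counts in each library labelled WT, so the genotypes are given below as labels. Libraries held 11269915 to 34824450 counts in total, of which 64.3% to 88.1% fell on ribosomal RNA features, and 1819907 to 6399188 counts per library fell elsewhere. In all, 5 libraries were over 85% ribosomal RNA, namely NK1, NK2 and NK3 (labelled TAAR5-KO) and NK9 and NK10 (labelled WT). NK1, NK2, NK3, NK6 and NK12 held 2.45 to 8.1 CPM of choroid plexus markers in sum, and the highest library held 469 CPM. These sets of libraries come back below wherever a gene followed them. CPM values are on the scale of TMM factors, which ran from 0.375 to 2.46, and log2 fold changes are the libraries labelled TAAR5-KO minus those labelled WT.

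Glutamate that leaves the synapse is carried into astrocytes by 2 sodium-coupled transporters, GLT-1 (Slc1a2) and GLAST (Slc1a3), and glutamine synthetase (Glul) turns it into glutamine that returns to neurons. Potassium enters through the inward rectifier Kir4.1 (Kcnj10) and through the sodium pump, of which Atp1b2 encodes the beta subunit typical of glia. Aquaporin-4 (Aqp4) is the water channel of the endfeet around vessels. The connexins Cx43 (Gja1) and Cx30 (Gjb6) join astrocytes into networks through which ions spread, and the sodium bicarbonate cotransporter NBCe1 (Slc4a4) couples uptake to pH.

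The levels of the 9 genes differed widely once counts were divided by the length of the merged exons. Glul had the highest level at 88.4 ± 4.86 CPM per kb and Slc1a2 followed at 72.7 ± 6.15 (mean ± SD over 12 libraries). A gap of 5.31-fold separated Slc1a2 from the next gene, Atp1b2, at 13.7 ± 2.70 CPM per kb. The other transporter of glutamate, Slc1a3, stood at 9.98 ± 0.865 CPM per kb, Kcnj10 at 6.66 ± 1.54 and Slc4a4 at 4.90 ± 0.603. Aqp4 reached 4.37 ± 0.990 CPM per kb, Gja1 3.52 ± 0.685 and Gjb6 1.46 ± 0.327. The order held in all 12 libraries for Glul over Slc1a2, Slc1a2 over Atp1b2, Slc1a3 over Kcnj10 and Gja1 over Gjb6. Slc4a4 and Aqp4 were the closest neighbours, with Slc4a4 above Aqp4 in only 9 of 12 libraries. Glul and Slc1a2, which take up and convert glutamate, thus lay at the top of the range, and the 2 connexins at its bottom.

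**Figure D1:**
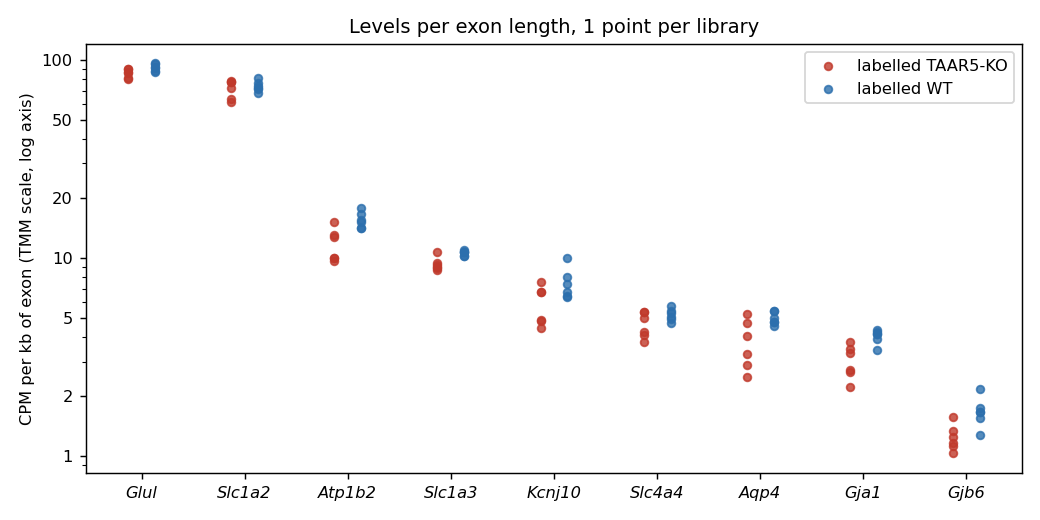
Level per exon length of the 9 transport genes in each of the 12 libraries, in CPM per kb on a log axis, with the libraries labelled TAAR5-KO and WT in 2 colours. On average Slc1a2 lies 5.31-fold above Atp1b2, the next gene, and the points of Slc4a4 and Aqp4 overlap.

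All 9 genes had a log2 fold change below 0, from −0.41 to −0.04, with a median of −0.35 against −0.01 for all 13902 features. By edgeR's likelihood ratio test with Benjamini–Hochberg adjustment over all features, 2 of the 9 passed the adjusted p threshold of 0.1, Gja1 and Atp1b2, both lower in the libraries labelled TAAR5-KO. Over all features, 1.65% were called, with 0.691% lower and 0.957% higher. At an unadjusted p under 0.05, 6 of the 9 were lower and 0 higher, against 5.51% and 6.39% of all features. Groups did not overlap in CPM for 0 of the 9 genes, against 0.388% of all features that lay apart on the lower side. The 9 genes are read from the same 12 libraries and are not independent of each other. In bulk striatum, fewer astrocytes and less RNA of these genes per astrocyte cannot be told apart.

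**Figure D2:**
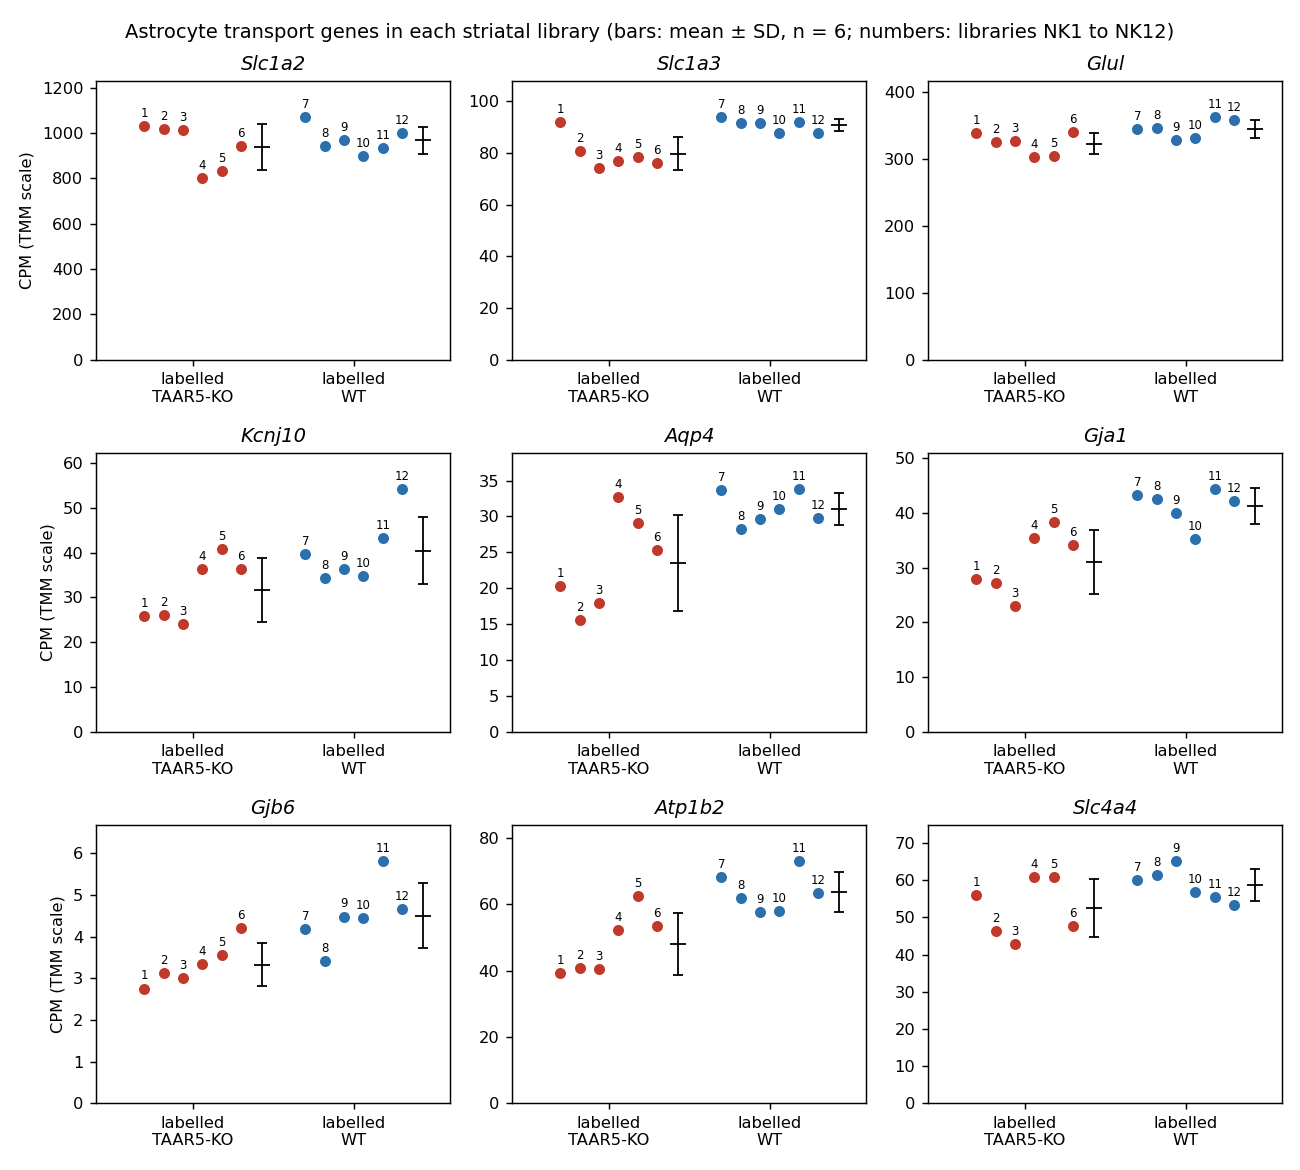
CPM of each gene in each library (points, numbered NK1 to NK12), with the mean ± SD of the 6 libraries per label beside them, on axes that start at 0. In Kcnj10, Aqp4, Gja1 and Atp1b2 the libraries NK1, NK2 and NK3 sit below all others, whereas in Slc1a2 they are the 3 highest of their group.

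The glutamate transporters showed small differences, and neither passed. Slc1a2 (ENSMUSG00000005089.16, chr2:102489004-102621129, plus strand, GRCm39) ran from 801 to 1032 CPM with a median of 979 in the libraries labelled TAAR5-KO, and from 897 to 1069 with a median of 956 in those labelled WT. NK4 and NK5, at 801 and 832 CPM, were the only 2 libraries below the WT range. The means were 940 ± 101 and 969 ± 60.0 CPM (SD, n = 6 each), and the log2 fold change of −0.04 (adjusted p = 0.931, SE 0.12) had a 95% interval from −0.27 to 0.18. Slc1a3 (chr15:8663608-8740248, minus strand) ran from 74.2 to 91.9 CPM with a median of 77.6 in the libraries labelled TAAR5-KO, and from 87.8 to 93.7 with a median of 91.6 in those labelled WT. In all, 5 of 6 libraries labelled TAAR5-KO lay below the lowest WT library, and NK1 lay inside the WT range. Slc1a3 had means of 79.7 ± 6.38 and 90.7 ± 2.40 CPM and a fitted level at 87.7% of WT, a log2 fold change of −0.19 (SE 0.084) that did not pass (adjusted p = 0.324). Its log2 fold change was −0.23 without NK1, NK2 and NK3, so it did not rest on these libraries.

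Glul (chr1:153775690-153785469, plus strand), the enzyme that makes glutamine from the glutamate taken up, ran from 303 to 341 CPM with a median of 327 in the libraries labelled TAAR5-KO and from 328 to 363 with a median of 346 in those labelled WT. The groups overlapped, with 4 of 6 libraries labelled TAAR5-KO below the WT range. The log2 fold change was −0.10 (adjusted p = 0.737, SE 0.090), with a 95% interval from −0.27 to 0.08. In this fit of all libraries, a fall by more than 0.27 on the log2 scale lies outside the interval for Slc1a2 and Glul alike. That bound does not hold in the fit without NK1, NK2 and NK3. There the log2 fold changes were −0.17 (SE 0.13) for Slc1a2 and −0.13 (SE 0.11) for Glul.

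Gja1 carried the lowest adjusted p of the 9 genes. It encodes Cx43, the main connexin of astrocytes, and lies on chr10:56253426-56278609 (ENSMUSG00000050953.11, plus strand). The libraries labelled TAAR5-KO ran from 22.9 to 38.4 CPM with a median of 31.1, and those labelled WT from 35.3 to 44.4 with a median of 42.4. NK1, NK2 and NK3 were lowest at 27.9, 27.2 and 22.9 CPM, NK6 at 34.2 was also below the WT range, and NK4 and NK5 lay inside it. The means were 31.0 ± 5.89 and 41.3 ± 3.27 CPM, and the fitted level fell to 75.3% of WT, a log2 fold change of −0.41 (adjusted p = 0.0568, SE 0.12). The call was lost under edgeR's quasi-likelihood test (adjusted p = 0.144, with 0.453% of all features called) and kept under DESeq2 (adjusted p = 0.0284, with 1.27% called). Gjb6 (chr14:57360760-57371068, minus strand), the other astrocyte connexin, ran from 2.76 to 4.20 CPM with a median of 3.23 in the libraries labelled TAAR5-KO and from 3.42 to 5.82 with a median of 4.47 in those labelled WT. At −0.40 (SE 0.15), Gjb6 differed by about as much as Gja1 and did not pass (adjusted p = 0.195).

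The 250 bases before the start of both connexin genes and of Glul are shown because the connexins had like differences and shared their low libraries, while Glul, at the top of the range, did not. They come from the RefSeq promoter table (build GRCm38.p6), and each was found once, letter for letter, at the GRCm39 position given here. Capitals mark matches on either strand to 5 motifs chosen after the data were seen, namely TATAAA (the TATA box), CCAAT (bound by the NF-Y complex), GGGCGG (the GC box bound by Sp1), TGAGTCA (the site of AP-1) and TTGGC (the core site of the NFI factors).
Gja1, chr10:56253146-56253395, plus strand: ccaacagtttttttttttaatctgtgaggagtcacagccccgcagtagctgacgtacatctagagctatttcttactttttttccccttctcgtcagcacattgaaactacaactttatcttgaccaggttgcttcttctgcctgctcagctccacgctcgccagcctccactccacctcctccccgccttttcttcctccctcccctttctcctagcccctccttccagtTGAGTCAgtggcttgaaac
Gjb6, chr14:57371069-57371318, minus strand: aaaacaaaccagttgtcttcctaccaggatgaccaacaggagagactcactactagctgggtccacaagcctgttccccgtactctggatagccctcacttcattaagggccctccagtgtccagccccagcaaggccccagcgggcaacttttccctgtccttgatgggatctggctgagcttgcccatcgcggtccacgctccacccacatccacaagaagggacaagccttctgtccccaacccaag
Glul, chr1:153775425-153775674, plus strand: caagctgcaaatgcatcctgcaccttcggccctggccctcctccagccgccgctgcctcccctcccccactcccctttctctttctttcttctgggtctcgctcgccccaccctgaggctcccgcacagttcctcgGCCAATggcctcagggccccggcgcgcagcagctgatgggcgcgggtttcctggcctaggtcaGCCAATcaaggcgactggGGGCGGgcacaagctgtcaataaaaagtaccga
The window of Gja1 held TGAGTCA 19 bases before the start, a motif that 4.46% of 32851 promoter windows of this length hold. That of Gjb6 held none of the 5 motifs. Glul held CCAAT at 113 and 50 bases before the start, each overlapped by TTGGC on the other strand, and GGGCGG at 33. CCAAT occurs in 33.8% of all windows, TTGGC in 41.5%, GGGCGG in 32.7% and TATAAA in 12.4%. GC content was 50% in the window of Gja1, 56.8% in that of Gjb6 and 64.8% in that of Glul. The window of Kcnj10 is not printed, although this gene had a like difference (−0.35) and the same low libraries as the connexins. Of the 5 motifs, it held the same kinds as the window of Glul and no others. The contrast between the printed windows therefore depends on which were chosen, and a link of motifs to the low libraries was not tested. All these matches describe letters and not bound sites.

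Potassium uptake was represented by the channel Kcnj10 and the pump subunit Atp1b2. Atp1b2 (ENSMUSG00000041329.14, chr11:69490562-69496768, minus strand) ran from 39.4 to 62.4 CPM with a median of 46.5 in the libraries labelled TAAR5-KO, and from 57.5 to 73.0 with a median of 62.6 in those labelled WT. Only NK5, at 62.4 CPM, lay inside the WT range, and NK1, NK2 and NK3 were lowest at 39.4, 40.7 and 40.6 CPM. The means were 48.1 ± 9.33 and 63.7 ± 6.02 CPM, and the fitted level fell to 75.7% of WT, with a log2 fold change of −0.40 (adjusted p = 0.0742, SE 0.12). The quasi-likelihood test did not call it (adjusted p = 0.169), and DESeq2 did (adjusted p = 0.0381). Kcnj10 (chr1:172168777-172201652, plus strand) ran from 24.1 to 40.8 CPM with a median of 31.3 in the libraries labelled TAAR5-KO and from 34.4 to 54.1 with a median of 38.0 in those labelled WT. NK1, NK2 and NK3 were the 3 libraries below the WT range, and NK4, NK5 and NK6 lay within it. The log2 fold change of Kcnj10 was −0.35 (adjusted p = 0.271, SE 0.15).

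Water and bicarbonate transport gave 1 larger and 1 smaller difference, and neither passed. Aqp4 (chr18:15522553-15544039, minus strand) ran from 15.6 to 32.6 CPM with a median of 22.8 in the libraries labelled TAAR5-KO and from 28.3 to 33.8 with a median of 30.4 in those labelled WT. NK4 and NK5 lay inside the WT range, and NK2, at 15.6 CPM, was the lowest. The log2 fold change of Aqp4 was −0.40 (adjusted p = 0.190, SE 0.15). Slc4a4 (chr5:89034345-89387512, plus strand) ran from 42.9 to 60.8 CPM in the libraries labelled TAAR5-KO and from 53.3 to 65.2 in those labelled WT, with 3 of the former below the latter. Its log2 fold change was −0.16 (adjusted p = 0.583, SE 0.11).

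The 5 genes with the larger differences shared their low libraries. Kcnj10, Aqp4, Gja1 and Atp1b2 were each lowest in NK1, NK2 and NK3 among all 12 libraries, and Gjb6 was too. These are the 3 libraries labelled TAAR5-KO with over 85% ribosomal RNA, and all 3 are among the 5 with little choroid plexus signal. Without them, 0 of the 9 genes were called by the likelihood ratio test (1 with an unadjusted p under 0.05, Slc1a3, and 0.417% of all features called). The log2 fold changes then shrank to −0.20 for Gja1, −0.19 for Atp1b2, −0.26 for Gjb6, −0.10 for Aqp4 and −0.10 for Kcnj10. Those of Slc1a2 and Glul moved the other way, to −0.17 and −0.13. Leaving out single libraries, the calls of Gja1 and Atp1b2 were lost without NK1, NK2, NK3, NK7, NK8, NK11 or NK12 and kept without each of the other 5. Their log2 fold changes in these fits ran from −0.48 to −0.33 for Gja1 and from −0.49 to −0.35 for Atp1b2. Without NK8 and NK12 the values of Gja1 stayed at −0.40 and −0.41 (adjusted p = 0.10004 and 0.103), and those of Atp1b2 at −0.41 in both (0.102 and 0.116). Without NK4, 3 of the 9 were called (2.99% of all features), and without NK5 also 3 (2.14%), Aqp4 being the added gene in both. Gjb6 was the 1 gene called without NK8 (−0.47, adjusted p = 0.0891, with 1.62% of all features called). Gja1 alone was called after removal of the GC trend (0.755% of all features). None of the 9 was called by the likelihood ratio test with the ribosomal RNA share as a covariate (Gja1 −0.34, Atp1b2 −0.32, with 0.705% of all features called), at an adjusted p under 0.05 (0.777%) or with library size as the only scaling (0.0504%).

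Genotypes were also compared within the sets of libraries over and under 85% ribosomal RNA. In the set over 85%, the labels cannot be told apart from other tissue markers, since choroid plexus markers summed to 2.45 to 3.65 CPM in NK1, NK2 and NK3 and to 205 and 240 CPM in NK9 and NK10. Cortical pyramidal neuron markers summed to 52.1 to 93.4 CPM in the former and to 31.3 and 41.5 CPM in the latter. In this set (3 labelled TAAR5-KO, 2 labelled WT), 6 of the 9 were called lower, where 6.51% of 9828 features were called. Aqp4 had a log2 fold change of −0.80 there (adjusted p = 1.53e-06), Gjb6 −0.64 (0.0903), Gja1 −0.58 (9.08e-04), Atp1b2 −0.57 (5.64e-05), Kcnj10 −0.53 (0.00108) and Slc4a4 −0.37 (0.0778). Slc1a2, at 0.088, Glul, at −0.04, and Slc1a3, at −0.17, were not called. Among the libraries of at most 85% (3 labelled TAAR5-KO, 4 labelled WT), 0 of the 9 were called by the likelihood ratio test, where 0.577% of features were called. There the values were −0.26 for Gja1 and Gjb6, −0.24 for Atp1b2 and Slc1a3, −0.20 for Slc1a2, −0.18 for Kcnj10, −0.15 for Glul, −0.11 for Aqp4 and −0.03 for Slc4a4. The difference between the 2 sets was not tested. With a term for the sets in a fit of all libraries, Gja1 (−0.36, adjusted p = 0.015) and Atp1b2 (−0.35, adjusted p = 0.025) were called, beside 1.11% of all features. These p-values follow a split made after the data were seen, whose set over 85% holds NK1, NK2 and NK3, the lowest libraries of both genes. With the ribosomal RNA share itself as a covariate, the likelihood ratio test called neither (adjusted p = 0.151 and 0.205).

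**Figure D3:**
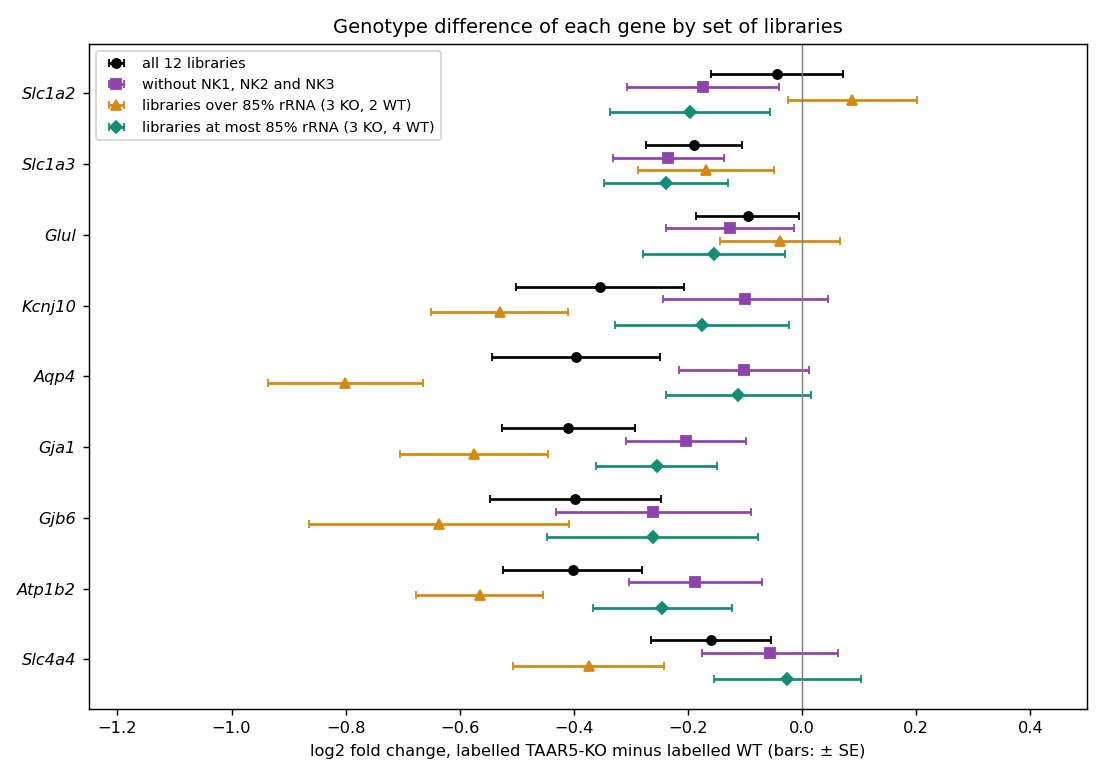
log2 fold change (labelled TAAR5-KO minus labelled WT, with SE) of each gene in all libraries and in subsets of them. Aqp4 moves from −0.80 in the libraries over 85% ribosomal RNA to −0.11 in those of at most 85%, whereas Slc1a3 stays between −0.24 and −0.17.

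**Figure D4:**
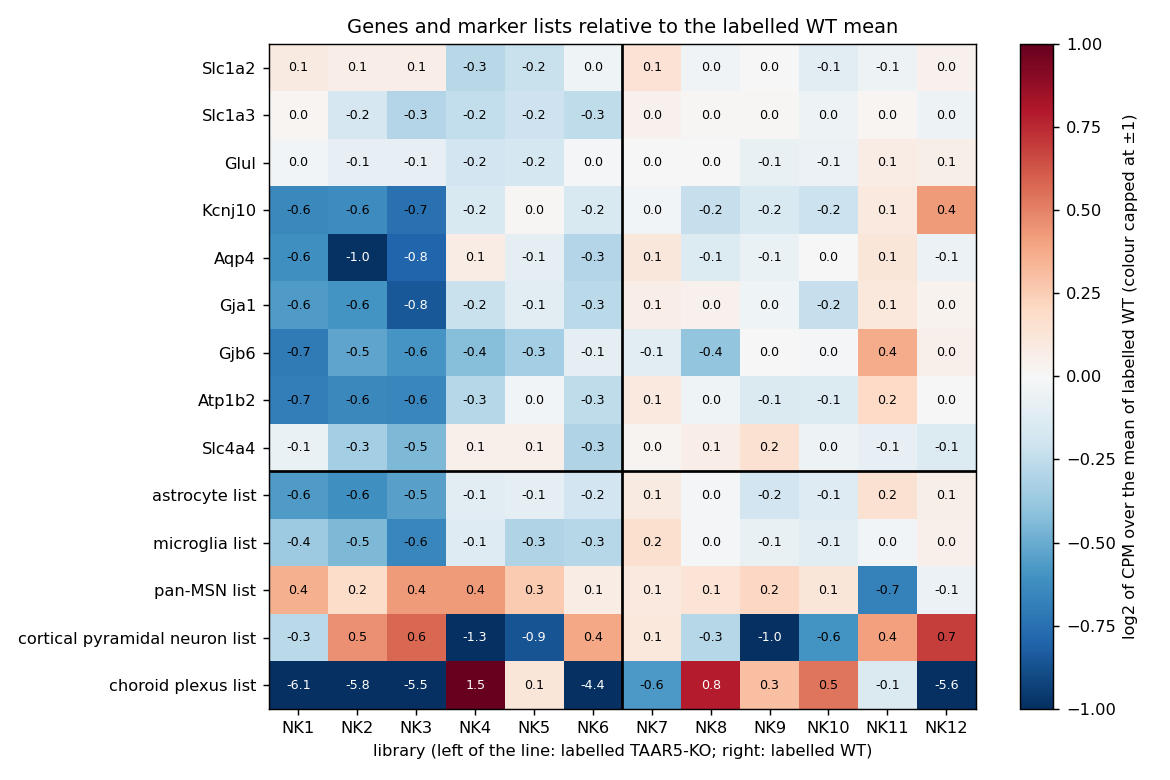
The log2 ratio of CPM in each library to the mean of the libraries labelled WT, for the 9 genes and, under the line, for the summed markers of 5 cell types (colour capped at 1 in either direction, values printed to 1 decimal). NK1, NK2 and NK3 form a low block for Kcnj10, Aqp4, Gja1, Gjb6 and Atp1b2 and not for Slc1a2 and Glul, and the astrocyte list is low in them too.

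Ratios between genes of the same library were compared because they do not depend on the scaling. Slc1a2 was 11.8 ± 1.28 times Slc1a3 in the libraries labelled TAAR5-KO and 10.7 ± 0.578 times in those labelled WT, in CPM not divided by length (log2 difference 0.14, exact two-sided permutation p = 0.0649, adjusted over 5 ratios 0.325). The 2 connexins kept nearly the same ratio, with Gja1 at 9.34 ± 1.34 times Gjb6 against 9.39 ± 1.78 times (exact permutation p = 0.998). Aqp4 was 0.739 ± 0.0994 times Kcnj10 against 0.785 ± 0.121 times (exact permutation p = 0.539). Glul against Slc1a2 (log2 difference −0.05, exact permutation p = 0.403) and Slc4a4 against Slc1a3 (0.02, exact permutation p = 0.842) differed by less than the spread between libraries. None of the 5 ratios passed after adjustment, and 0 had an unadjusted p under 0.05.

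Other genes of the same transport were taken from a list of 47, of which 44 were tested. Of these, 1 was called, Kcnj2, and it was higher in the libraries labelled TAAR5-KO, against 0.957% of all features called higher and 0.691% lower. In all, 31 of the 44 lay below 0 and 13 above, with a median log2 fold change of −0.12 against −0.01 for all features. Kcnj2 encodes the inward rectifier Kir2.1, which neurons and vessel cells carry as well, and its level was 9.83 ± 1.54 CPM against 6.94 ± 0.478 (log2 fold change 0.48, SE 0.11, adjusted p = 0.00746). All 6 libraries labelled TAAR5-KO lay above the highest WT library, which 0.626% of all features did. The quasi-likelihood test also called it (adjusted p = 0.0636), but without NK1, NK2 and NK3 it was not called (0.38, adjusted p = 0.241), nor after removal of the GC trend (0.36, adjusted p = 0.149). With library size as the only scaling its direction turned (−0.074, adjusted p = 0.923), where the median of all features was −0.49.

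At an unadjusted p under 0.05, 8 of the 44 were lower and 2 higher, against 5.51% and 6.39% of all features. By role, all 5 tested genes of glutamate and GABA uptake lay below 0, with the GABA transporter GAT-3 (Slc6a11) at 19.3 ± 8.33 against 30.0 ± 3.41 CPM (log2 fold change −0.63, SE 0.20, adjusted p = 0.109). In all, 4 of 5 glutamine genes lay below 0, with glutamate dehydrogenase (Glud1) at −0.25 (adjusted p = 0.158, SE 0.088). Of 11 genes of potassium channels and the pump, 7 lay below 0. The endfoot and volume genes were below 0 in 6 of 10, with the adhesion protein Hepacam at −0.23 (adjusted p = 0.220, SE 0.089). Gap junction partners were below 0 in 5 of 6, with the connexin Gjb2 at −0.42 (adjusted p = 0.589, SE 0.28). Bicarbonate, pH and lactate genes were below 0 in 4 of 7, with carbonic anhydrase 2 (Car2) at −0.22 (adjusted p = 0.324, SE 0.097).

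**Figure D5:**
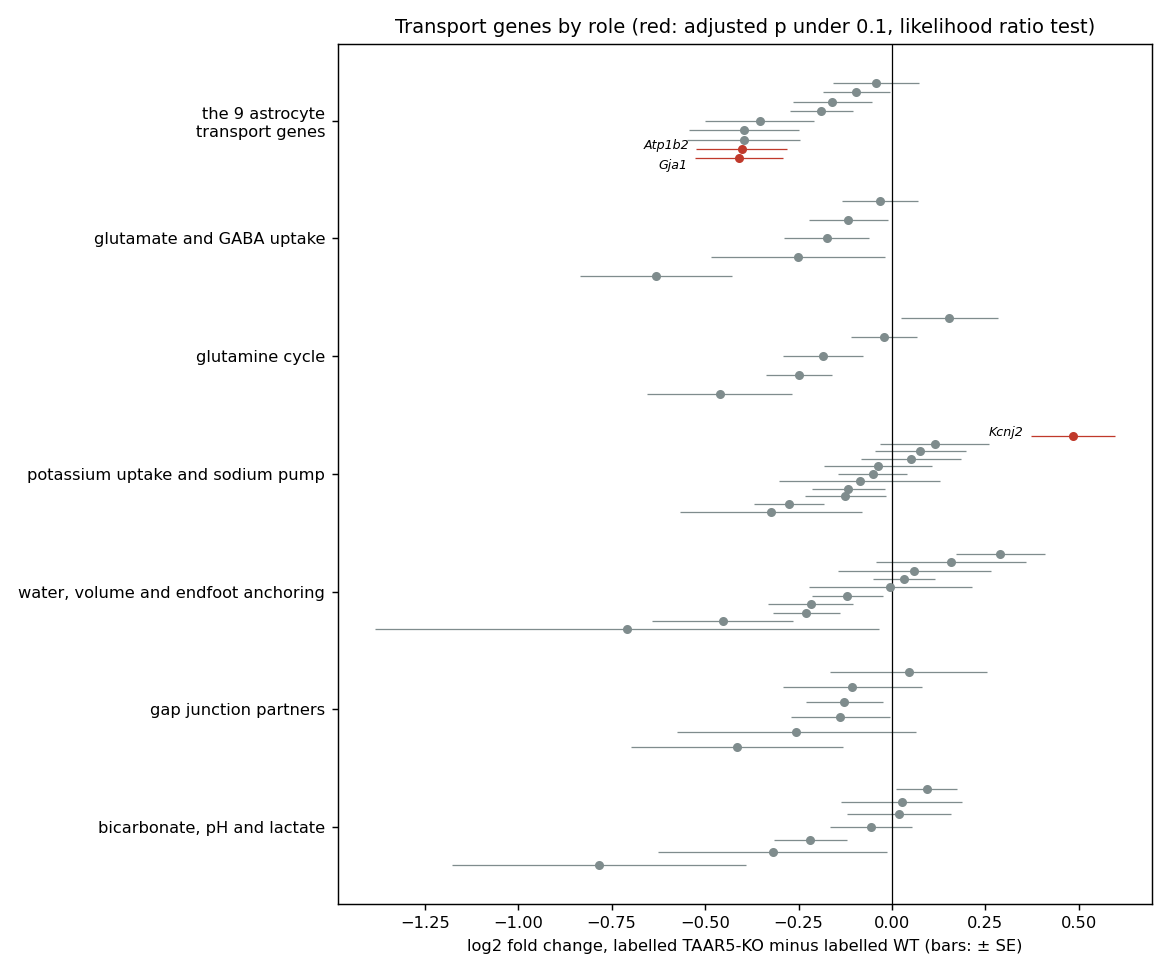
log2 fold change with SE of the 9 genes and of the 44 tested genes of the transport list, grouped by role, with genes past the adjusted p threshold in red. Gja1 and Atp1b2 are called on the lower side and Kcnj2 on the higher side.

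Markers of the cell types in the tissue were summed in each library, to set the transport genes beside their cells. The 12 astrocyte markers, none of them among the 9 genes, summed to 137 ± 23.3 CPM (113 to 162) in the libraries labelled TAAR5-KO and 173 ± 15.6 (151 to 192) in those labelled WT, with an exact two-sided permutation p of 0.0216 and 0.0952 after adjustment over 12 lists. The sum leans on its most abundant gene, Aldoc, at 60.5 ± 10.0 against 74.7 ± 11.1 CPM. Aldoc did not pass by the likelihood ratio test (log2 fold change −0.31, adjusted p = 0.267). Of these 12 markers, 11 lay below 0 and 2 were called lower, the acyl-CoA synthetase Acsbg1 (log2 fold change −0.44, adjusted p = 0.00915) and Mfge8 (−0.38, adjusted p = 0.0873). Over all features, 51.1% lay below 0 and 0.691% were called lower. The sums of NK1, NK2 and NK3 were 117, 113 and 118 CPM, so the low libraries of the transport genes were low in these markers too. With the astrocyte sum as a covariate, 0 of the 9 genes were called by the likelihood ratio test, where 0.209% of all features were called. The log2 fold changes were then 0.054 for Kcnj10, 0.032 for Aqp4, −0.054 for Atp1b2, −0.10 for Gja1 and −0.15 for Gjb6, and they were −0.24 for Slc1a3 and −0.19 for Slc1a2. The covariate was added after the data were seen and was itself lower on average under the TAAR5-KO label. This fit therefore cannot separate the label from the astrocyte sum.

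Per CPM of the astrocyte sum, the levels of Gja1 were 0.226 ± 0.0179 and 0.240 ± 0.0148, and those of Atp1b2 0.350 ± 0.0212 and 0.369 ± 0.0108, in the libraries labelled TAAR5-KO and WT. Slc1a2 stood at 7.12 ± 1.89 and 5.64 ± 0.50 on this scale, with overlapping ranges (4.97 to 8.99 and 4.86 to 6.40). Glul stood at 2.43 ± 0.481 and 2.01 ± 0.114, Slc1a3 at 0.598 ± 0.131 and 0.529 ± 0.0472, and Slc4a4 at 0.387 ± 0.0551 and 0.343 ± 0.0521. Kcnj10, Aqp4 and Gjb6 were, like Gja1 and Atp1b2, lower on average under the TAAR5-KO label. Other lists moved as well. Microglia markers summed to 35.8 ± 4.30 against 45.8 ± 3.13 CPM, with no overlap of the groups (exact permutation p = 0.00216, the smallest that 924 assignments allow, adjusted 0.0260). Of the 8 microglia markers, 8 lay below 0 and 3 were called lower, where 0.691% of all features were called lower. Their median log2 fold change was −0.36 against −0.27 for the astrocyte markers and −0.35 for the 9 genes. Markers of medium spiny neurons as a class summed to 334 ± 32.1 against 273 ± 53.0 CPM (exact permutation p = 0.0238, adjusted 0.0952). Among the libraries labelled WT, NK11 was far below the others in this sum, at 170 CPM against 262 to 315. Without NK1, NK2 and NK3, the microglia sums still did not overlap (37.2 to 41.9 CPM against 42.5 to 51.2). The exact permutation p could then not go below 0.0119 over 84 assignments, or 0.143 for a single list after adjustment, so 3 against 6 libraries could not bring 1 list past the threshold. The lists of D1 spiny neurons (adjusted exact permutation p = 0.169), oligodendrocyte precursors (0.203), D2 spiny neurons and mature oligodendrocytes (0.371 each) did not pass. Nor did endothelium (0.906), ependyma and interneurons (0.949 each) and cortical pyramidal neurons (0.972). No list had a marker at 0 in every library. The choroid plexus sum ran from 2.45 to 469 CPM and from 3.41 to 286 CPM (exact permutation p = 0.574), and with it as a covariate 0 of the 9 genes were called, where 2.09% of all features were, with Gja1 at −0.33 (adjusted p = 0.106) and Atp1b2 at −0.32 (adjusted p = 0.140). What part the makeup of the tissue, the ribosomal RNA share or these libraries have in the values of the 9 genes was not tested.

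The features whose log2 CPM ran closest to the mean of the 9 standardized genes over the 12 libraries were Ergic3 (Pearson's r 0.936), Hepacam (0.934), Tmem132e (0.931) and Pygb (0.917), the closest 4 out of 13893. All share depth, ribosomal RNA share and tissue makeup with the 9 genes, so r is a description. Ergic3 (log2 fold change −0.35, adjusted p = 0.0842), Tmem132e (−1.02, adjusted p = 0.0129) and Pygb, the brain glycogen phosphorylase (−0.25, adjusted p = 0.0930), were called lower in the libraries labelled TAAR5-KO, where 0.691% of all features were. They were picked for running with genes that lay below 0, so their lower values are in part set by that choice.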

How the data were processed

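The authors depleted striatal RNA of ribosomal RNA, made directional libraries, sequenced single-end reads, trimmed them with cutadapt 4.1, aligned them to GRCm39 with STAR 2.7.11b and assigned them to GENCODE M35 genes with featureCounts 2.0.6. They deposited whole-number counts without normalization. The strand setting is not given in the sources used here, so reads of a gene and of an antisense partner may be mixed; of the 9 genes, Gja1, Gjb6, Glul, Kcnj10, Slc1a2 and Slc1a3 share exon bases with another gene. The table holds 12 more columns of library counts, which stayed unused. Columns were assigned to genotypes by their names, and p-values measure the spread between these libraries.

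Tests covered features that reached 0.5 CPM in 3 or more libraries. Genotypes were compared over the whole table with TMM factors and the likelihood ratio test of edgeR 4.0.16 (R 4.3.3) with no covariate (the test of the study), and p-values adjusted by Benjamini–Hochberg were called under 0.1. SE came from the same fit, and 95% intervals are normal. DESeq2 1.42.0 and the quasi-likelihood test were alternatives. Others were library size scaling, RLE size factors, removal of ribosomal RNA features, no filter, edgeR's filterByExpr, the CPM filter on TMM library sizes and robust dispersions. A stricter adjusted p of 0.05, a ribosomal RNA share covariate, length and GC trends (loess, span 0.5, GC from GENCODE M39) and leaving out each library were also run. Subsets by ribosomal RNA share or without NK1, NK2 and NK3, and covariates from marker lists, were added after seeing the data. One value per library was tested by exact permutation, two-sided. Fits were tested on simulated data.

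Named were all 9 genes, the called genes of the transport list or the smallest p per role, the 5 most alike features (4 are given) and both genes of each ratio. Acsbg1 and Mfge8 were also described as called genes, and Aldoc as the most abundant astrocyte marker, all chosen after their values were seen. One further gene, with its ratio, is not reported here. The 9 genes and the lists were chosen with earlier results of these data known. Some marker lists are given only as sums.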

Additional observations from a re-analysis of the deposited data

Results flagged for a closer look

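In all, 6 of 52 groups of 6 libraries had an extreme library by Dixon's criterion, where chance gives about 1 in 20. In the libraries labelled TAAR5-KO, Slc1a3 was far above the others in NK1, at 91.9 CPM. In the libraries labelled WT, the ratio of Aqp4 to Kcnj10 was lowest in NK12 at 0.549. NK11 was lowest in the summed markers of D1 medium spiny neurons (23.9 CPM), of D2 medium spiny neurons (19.3 CPM) and of the class as a whole (170 CPM). NK12 was lowest in the summed markers of mature oligodendrocytes, at 166 CPM.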

How the results depend on the processing

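No paired analysis was possible because the library columns carry numbers that are not tied to the animal numbers of the labels. Of the 9 genes, 2 were called at first, Gja1 and Atp1b2. The same 2 were called under DESeq2 (1.27% of all features called), RLE size factors (1.63%) and filterByExpr (1.75%). They were also called under the CPM filter on TMM library sizes (1.79%), robust dispersions (1.27%) and the term for the 85% sets (1.11%). The count was 0 under the quasi-likelihood test (6 of 9 with an unadjusted p under 0.05, and 0.453% of all features called), library size as the only scaling (0.0504%) and no filter (0.213%). It was also 0 at an adjusted p under 0.05 (0.777%) and with a ribosomal RNA share (0.705%), astrocyte (0.209%) or choroid plexus (2.09%) covariate. The libraries of at most 85% ribosomal RNA (0.577%) and the omission of NK1, NK2 and NK3 (0.417%) gave 0 too. The count was 1, Gja1, with ribosomal RNA features (0.834%), the length trend (1.42%) or the GC trend (0.755%) removed. It was 6 in the libraries over 85% (6.51%), and it ran from 0 to 3 with single libraries left out (0.616% to 2.99%). Of the transport list, with 1 of 44 called at first, DESeq2 called 3 of 44 (1 higher and 2 lower, beside 1.27% of all features). The libraries over 85% gave 7 of 39 tested (3 higher and 4 lower, beside 6.51% of features). In this list, 0 were called under library size scaling, the GC trend, the astrocyte covariate, the libraries of at most 85% and without NK1, NK2 and NK3 (1 to 6 with single libraries left out). Over all features, 229 calls became 63 under the quasi-likelihood test, 7 under library size scaling, 93 without a filter, 108 at an adjusted p under 0.05, 98 with the ribosomal RNA covariate, 105 with the GC trend removed, 29 with the astrocyte covariate, 80 and 640 in the libraries of at most and over 85%, and 58 without NK1, NK2 and NK3 (85 to 414 with single libraries left out). Of 12 marker lists, 3 passed, 1 passed on mean log2 CPM, and 0 passed under library size scaling (1 to 4 with single libraries left out). Without NK1, NK2 and NK3 the count was also 0, but 3 against 6 libraries allow no adjusted p under 0.143 for a single list, so this says nothing of stability.

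Direction changed for Slc1a2 in the libraries over 85% (0.088), Glul with the GC trend removed (0.0070), and Kcnj10 (0.054) and Aqp4 (0.032) with the astrocyte covariate. Kcnj2, called higher at first, turned to −0.074 under library size scaling. Without NK1, NK2 and NK3 the log2 ratio difference became 0.048 for Glul to Slc1a2 and 0.076 for Gja1 to Gjb6, and the choroid plexus difference became 53.1 CPM. With single libraries left out, the differences ran from −0.056 to 0.085 for Gja1 to Gjb6, from −0.037 to 0.055 for Slc4a4 to Slc1a3, from −0.057 to 0.48 CPM for endothelium, from −0.47 to 0.86 for ependyma, from −6.91 to 7.19 for cortical neurons and from −0.60 to 0.98 for interneurons. Under library size scaling the differences turned to −7.78 (D1), −8.46 (D2), −47.0 (spiny neurons as a class), −2.51 (endothelium) and −11.1 CPM (interneurons), and on mean log2 CPM to −0.060 (endothelium), −0.086 (ependyma), 0.074 (cortical neurons) and −0.075 (interneurons). Library size scaling moved the median of all features to −0.49, and the 9 genes then ran from −0.81 to −0.57. The cause of these changes was not tested. Gja1 and Atp1b2 were lower under each setting run, at values from −0.58 to −0.10 and −0.57 to −0.05 apart from library size scaling.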
